A study of Macaca mulatta with 20 samples.

Results

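A set of 42 genes of the cell cycle and of cell proliferation was described in the blood of irradiated rhesus macaques. The genes were chosen by name. Of the 42 genes, 36 had a probe that the scanner software marked as well above background on 5 or more of the 20 arrays, and for each gene the probe with the highest mean signal was used. These 36 are called the members below. They were measured among 34127 probes, of which 19961, with 15929 gene names, met the same limit and were tested. The other 6 genes, TYMS, MELK, KIF11, KIF20A, NCAPG and TOP2A, did not reach that limit and are only named. TOP2A, KIF20A and NCAPG were well above background on 0 of 20 arrays.

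The animals were male macaques that received a single dose of 10 Gy of X-rays to the thorax and no mitigating drug, so each animal served as its own control and no unirradiated animals were compared. Whole blood was taken before irradiation and at days 2, 5 and 30 after it, and its RNA was depleted of globin transcripts. The earlier samples and those of each later day form 4 groups of 5 Agilent Whole Human Genome arrays, numbered as replicates 1 to 5. The study's methods state that comparisons were paired by animal and that 1 sample was pooled from 2 animals, and the labels do not say which one that is. The arrays carry human probes of 60 bases, so a low signal can also come from differences between the human and the macaque sequence, which was not tested.

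A dividing cell first copies its DNA and then separates the copies. The MCM proteins form the helicase that opens the DNA, CDC6 loads it, GINS2 belongs to the complex that activates it, PCNA is the clamp of the polymerases, RRM2 is a subunit of the enzyme that makes the DNA building blocks, and E2F1 and UHRF1 regulate entry into and maintenance during that phase. Mitosis is driven by CDK1 with cyclins A and B (CCNA2, CCNB1, CCNB2) and by the Aurora and Polo kinases, while BUB1, BUB1B and TTK hold the cell back until every chromosome is attached. Most leukocytes in circulation do not divide, and transcripts of this kind in blood are usually ascribed to a few cells, such as activated lymphocytes, plasmablasts and released precursors. In whole blood RNA, fewer cells of a type and less RNA per cell cannot be told apart.

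RRM2, CENPE and CDK1 had the lowest p-values of the members in a comparison, and 3 other genes, CCNB1, MKI67 and UHRF1, had a pair of probes with changes of opposite sign at day 30. The first 30 bases of these probes are shown 5′ to 3′ because what each result refers to depends on the probe. Positions are those of the whole probe in the array annotation, human build hg19.
RRM2, chr2:10270487-10270546, plus strand: ggttcctacaagttgttcattctagttttg
CENPE, chr4:104027339-104027398, minus strand: ctgagtgcaaaactcagtagactcctcttt
CDK1, chr10:62552004-62553650, plus strand: cccatgtcaaaaacttggatgaaaatggct
CCNB1, probe used, chr5:68473872-68473931, plus strand: gaatccctagtccccctgttttctgtttct
CCNB1, other probe, chr5:68471363-68473123, plus strand: ggacaccaactctacaacattacctgtcat
MKI67, probe used, chr10:129907580-129907639, minus strand: ataaatgctctgcaagccctcccttaagac
MKI67, other probe, chr10:129913193-129913252, minus strand: atgtgctctgggttacctggtcttagttca
UHRF1, probe used, chr19:4962065-4962124, plus strand: tgtattagggaagaatgagacaattttgtg
UHRF1, other probe, chr19:4960895-4960954, plus strand: ggcttaacttaaacaggtagtgtttcctcc
The CDK1 probe and the other CCNB1 probe span more genome than their 60 bases, so they lie across an exon junction. The exons and untranslated regions of the other probes were not annotated here.

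Levels are given as the log2 signal of a probe minus the 75th percentile of its array, so 0 is that percentile and the levels of different probes are not compared. Changes are differences of these levels over 5 pairs, with the standard error (SE) and the p-value of limma adjusted over all tested probes. The limits for a call were an unadjusted p below 0.005 and a false discovery rate (FDR) below 10%. By that rule limma called 0 of the 36 members in each of the 6 comparisons between groups, and a paired test made separately for every probe also called 0 members. Members are therefore described below at an unadjusted p under 0.05, with the share of all tested probes that met the same limit beside the count. None of these members passed the FDR limit, and the words higher and lower give only the direction of the measured change.

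**Figure D1:**
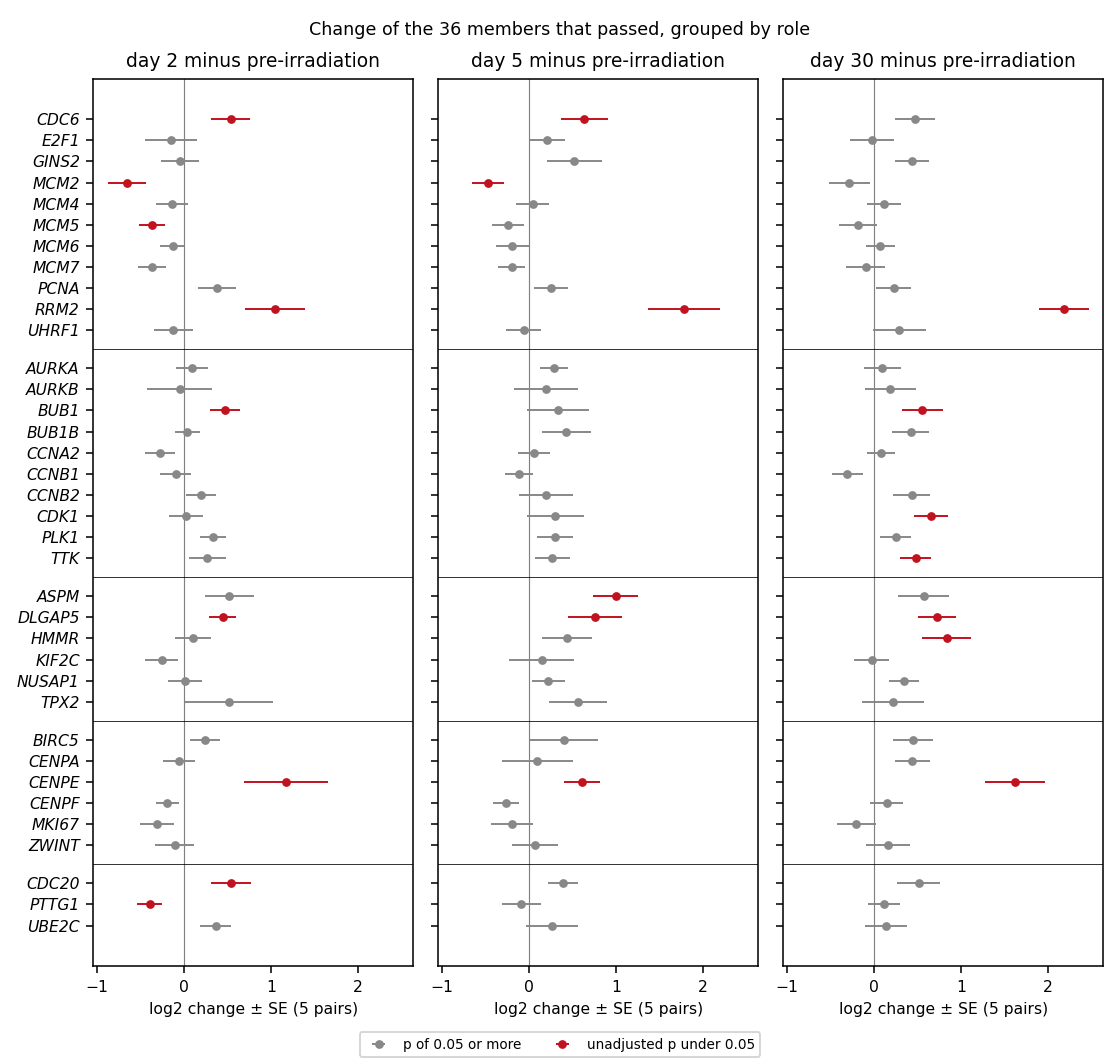
The 36 members that passed are grouped by role, from top to bottom replication, mitotic kinases and cyclins, spindle and motors, centromere and chromosome, anaphase and proteolysis. Points are the log2 change from pre-irradiation (x axis) with the SE over 5 pairs, and red points had an unadjusted p under 0.05. At day 30 all 7 red points lie to the right of 0, while at day 2 there are 6 to the right and 3 to the left.

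At day 2 members lay on both sides of 0, also within a role. Of the 36, 6 were higher and 3 lower at an unadjusted p under 0.05, or 16.7% and 8.33%. Among all tested probes 8.47% were higher and 6.55% lower, and 0.0601% were called. The median change of the members was 0.01, and that of all tested probes was -0.04. With normexp correction these medians were 0.36 and 0.17. The 3 lower members were the helicase subunits MCM2 and MCM5 and PTTG1, the securin that keeps the protease separase inactive until anaphase. The 6 higher members were RRM2 and CDC6 of replication, the checkpoint kinase BUB1, the spindle protein DLGAP5, the kinetochore motor CENPE, and CDC20, which activates the ligase that ends mitosis. RRM2 and CDC6 were well above background on 0 arrays before irradiation and passed the filter only through later arrays, so their direction was fixed by the filter. Without them, and with all probes held to at least 1 such array before irradiation, 4 members were higher and 3 lower, beside 8.12% and 6.62% of the 19724 probes left. The balance turned for the 23 members whose probes were well above background on all 20 arrays, with 3 higher and 4 lower and a median of -0.097, against -0.046 for all such probes. It was 6 and 1 with median scaling, and 3 and 4 with the paired test made separately for every probe.

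MCM2 was 1.07, 1.44, 1.61, 1.99 and 1.45 in replicates 1 to 5 before irradiation and 1.09, 1.02, 0.14, 1.24 and 0.80 at day 2. Replicate 1 was not lower at day 2, replicate 3 was the lowest, and the groups overlapped. The change was -0.66 ± 0.22 (SE, 5 pairs), with an adjusted p of 0.252 in limma. MCM5 had a change of -0.37 ± 0.15 (adjusted p = 0.316) and was lower in 5 of 5 pairs. MCM7 had a change of -0.37 ± 0.16 and was also lower in 5 of 5 pairs, with an adjusted p of 0.339. Of the other helicase subunits, MCM4 had a change of -0.14 ± 0.19 and MCM6 of -0.13 ± 0.15, so the 5 subunits among the members had a change below 0. The other subunit, MCM3, which belongs to the list of other replication genes, had a change of 0.40 ± 0.33, higher in 3 pairs and lower in 2. The second probes of MCM5 and MCM7 had a change of -0.12 ± 0.18 and -0.20 ± 0.15, each higher in 2 pairs and lower in 3. Of the other replication members, PCNA had a change of 0.38 ± 0.22, in the opposite direction.

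PTTG1 was 3.30, 2.70, 2.92, 2.91 and 2.67 before irradiation and 2.95, 2.28, 2.35, 2.33 and 2.6 at day 2. It was lower in all 5 pairs, although replicate 1 at day 2 stayed above replicates 2 to 5 before irradiation. Its change was -0.40 ± 0.15 (adjusted p = 0.286). CENPF, a large kinetochore protein, was lower in 5 of 5 pairs by a small amount, -0.19 ± 0.14 (adjusted p = 0.53).

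BUB1 was -3.46, -3.42, -3.46, -3.62 and -3.39 before irradiation and -2.52, -3.15, -3.24, -3.45 and -2.67 at day 2. All 5 pairs were higher, and replicate 4 at day 2 still lay within the range before irradiation. The change was 0.47 ± 0.17 (adjusted p = 0.282). DLGAP5 had a change of 0.44 ± 0.15 (adjusted p = 0.259), again higher in 5 of 5 pairs. The kinase PLK1 and the ubiquitin-conjugating enzyme UBE2C, which acts with CDC20, were higher in 5 of 5 pairs by 0.33 ± 0.15 (adjusted p = 0.34) and 0.36 ± 0.18 (adjusted p = 0.389). Much of the UBE2C change came from replicate 5, at -0.98 before irradiation and 0.05 at day 2. In all, 6 members were higher and 4 lower in every pair at day 2, beside 6.17% and 8.19% of all tested probes. Without RRM2 and CDC6 there were 4 and 4, beside 5.96% and 8.29% of the probes left.

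CDC20 was 0.50, 0.01, 0.43, -0.75 and 0.65 before irradiation and 0.43, 0.52, 1.34, 0.58 and 0.66 at day 2, a change of 0.54 ± 0.23 (adjusted p = 0.332). Much of this came from replicate 4, which was low before irradiation, and from replicate 3, which was high at day 2. Without replicate 4 it was 0.34. CENPE had a change of 1.17 ± 0.49 (4 of 5 pairs higher, adjusted p = 0.319), or 0.67 without replicate 3. CDC6 had a change of 0.54 ± 0.22 (adjusted p = 0.323), but its probe was well above background on 0 of 5 arrays before irradiation and on 3 of 5 at day 2. Its mean at day 2, -3.96, did not exceed the limit of -3.93 that background set before irradiation, so no fold can be given. Without replicate 4 the change was 0.32.

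The count of members at an unadjusted p under 0.05 at day 2 depended on single animals. It was 9 with all 5 pairs and 3 without replicate 3, when 0 members were lower. Without replicate 1, 4 or 5 it was 5, 4 and 5, and without replicate 2 it was 10, with 6 members higher and 4 lower. The shares of all tested probes moved as well, to 6.42% higher and 3.8% lower without replicate 3 and to 10.2% and 9.81% without replicate 2.

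At day 5 the members were spread by a single array. Of the 36, 5 were higher and 1 lower at an unadjusted p under 0.05, or 13.9% and 2.78%, beside 7.35% and 3.82% of all tested probes, of which 0% were called. The median change was 0.24 for the members and 0.03 for all tested probes. It depended on the scaling, at 0.05 and -0.03 with quantile normalization, 0.10 and -0.11 with median scaling and 0.13 and 0.03 with normexp correction. Without RRM2 and CDC6 there were 3 members higher and 1 lower, beside 6.84% and 3.86% of the probes left. Without replicate 4 the median of the members was -0.02 and 3 members were higher and 0 lower. Without replicate 2 the counts were 2 and 0. In pair 4 alone the median change of the members was 0.84, while in pairs 1, 2, 3 and 5 it was -0.17, 0.13, -0.01 and 0.04.

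**Figure D2:**
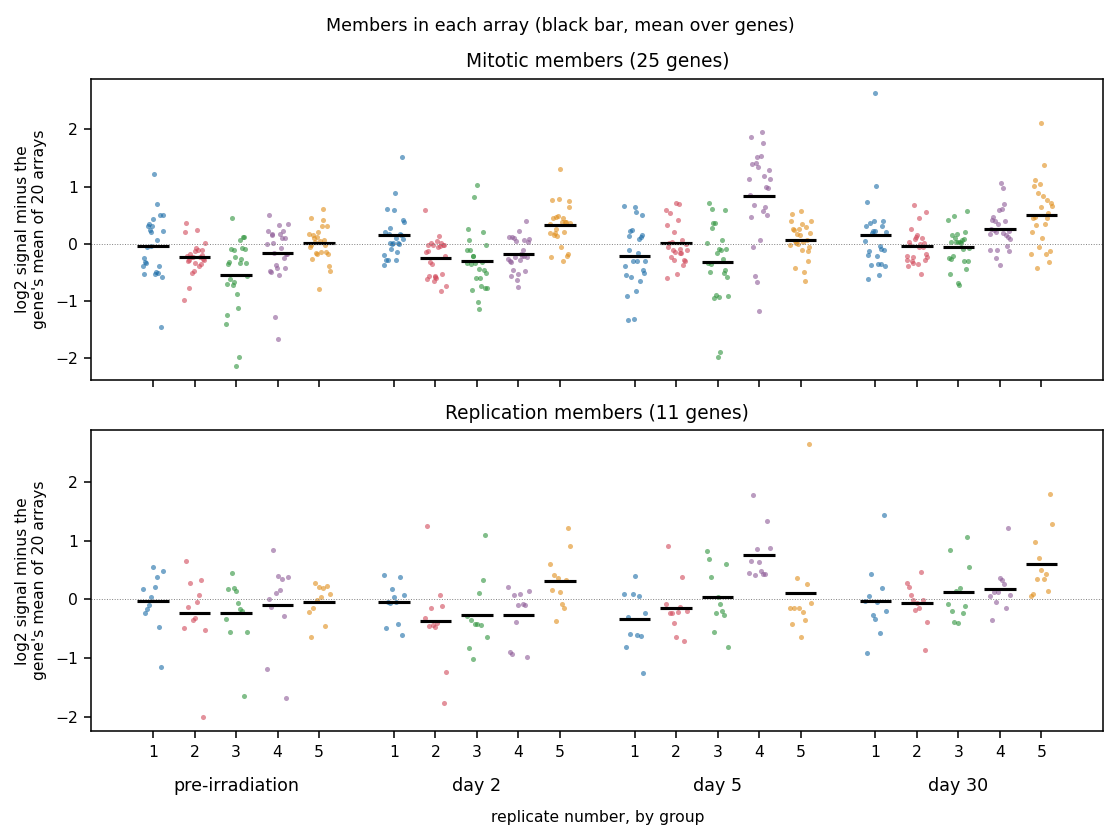
Each point is 1 gene in 1 array, as its log2 signal minus the mean of that gene over 20 arrays (y axis), and the black bar is the mean over genes. Arrays are ordered by group and replicate number (x axis). The mean of the 25 mitotic members is 0.83 in replicate 4 of day 5 and 0.51 in replicate 5 of day 30, and between -0.54 and 0.33 in the other 18 arrays.

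Replicate 4 of day 5 had the highest signal of all 20 arrays for 17 of the 25 mitotic members (all members but those of replication) and for 5 of the 11 replication members. CDK1 was -1.70, -1.69, -2.31, 0.10 and -1.14 in replicates 1 to 5 at day 5. Its partner CCNB2 was -1.14, -0.66, -1.51, 0.84 and -0.39. BIRC5, or survivin, a subunit of the chromosomal passenger complex, was -2.09, -1.24, -1.66, 0.70 and -0.92. For each of the 3 genes replicate 4 lay above the other 19 arrays, and the other 4 arrays of day 5 overlapped the arrays before irradiation. KIF2C, a motor that shortens microtubules, showed the widest gap, at 0.24 in replicate 4 and between -2.01 and -1.61 in the others. As a result CDK1, CCNB2 and BIRC5 had changes at day 5 of 0.30 ± 0.33, 0.19 ± 0.31 and 0.41 ± 0.39, so the SE was about as large as the change or larger.

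Other members were not at their highest in that array. CENPE was -1.78 there, below replicates 1, 2 and 5 of day 5. CDC20 was -0.15, the lowest of day 5, and CENPF was -2.51, within the range of its group. E2F1, TPX2, AURKB, BUB1B and the probe used for CCNB1 were not highest there either. MCM2, MCM7 and MKI67 were highest of day 5 in replicate 4 but not of all arrays.

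The members at an unadjusted p under 0.05 on day 5 were RRM2, ASPM, CENPE, DLGAP5 and CDC6, higher, and MCM2, lower. CENPE was the only member higher in every pair and CENPF the only one lower in every pair, beside 7.23% and 5.86% of all tested probes. CENPE was -0.17, -0.73, -2.74, -2.26 and -1.40 before irradiation and 0.04, 0.10, -2.58, -1.78 and -0.04 at day 5, a change of 0.61 ± 0.21 (adjusted p = 0.372). The groups overlapped, and replicates 3 and 4 were the lowest in both. ASPM, a protein of the spindle poles, had a change of 1.0 ± 0.26 (adjusted p = 0.319) and was well above background on 2 of 5 arrays before irradiation and 4 of 5 at day 5. DLGAP5 had a change of 0.76 ± 0.31 (adjusted p = 0.426) and was -0.36 in replicate 4 against -2.71 to -1.47 in the others. Without replicate 4 its change was 0.43. MCM2 had a change of -0.47 ± 0.18 (adjusted p = 0.404). CDC6 had a change of 0.64 ± 0.27 (adjusted p = 0.444), or 0.39 without replicate 4. Its probe was well above background on 0 of 5 arrays before irradiation and on 2 of 5 at day 5. No fold is given, and its direction was fixed by the filter.

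Another array of day 5 stood apart in quality. In replicate 3, 67.3% of spots were well above background and the median spot was at -2.45 on the log2 scale relative to the 75th percentile, while in the other 19 arrays the shares were 50.9% to 58.8% and the medians -3.42 to -3.07. CDC6, at -3.26, and BUB1B were the only members highest of all 20 arrays there, while HMMR was the lowest of its group, at -5.30. Without replicate 3 the median change of the members at day 5 was 0.28, with 4 members higher and 0 lower.

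At day 30 the members leaned one way. Of the 36, 7 were higher and 0 lower at an unadjusted p under 0.05, or 19.4% and 0%, beside 7.43% higher and 10.1% lower of all tested probes, of which 0% were called. The median change was 0.24 for the members and -0.02 for all tested probes, and 29 members had a change above 0. Over the 23 members whose probes were well above background on all 20 arrays the median was 0.11, against -0.02 for all such probes. Without RRM2 and CDC6 there were 6 members higher and 0 lower, beside 7.14% and 10.2% of the probes left, and 8 higher in every pair. In every pair 9 of the 36 members were higher and 0 lower, beside 7.41% and 10.5% of all tested probes. The 9 were RRM2, GINS2, CDK1, TTK, BUB1, DLGAP5, HMMR, NUSAP1 and CENPE. Replication was represented only by RRM2, whose direction was fixed by the filter, and by GINS2. The GINS2 probe was well above background on 3 of 5 arrays before irradiation and on 4 of 5 at day 30. Of the 11 replication members, 7 had a change above 0 and 4 below. By role the median change was 0.11 for the 11 replication members, 0.34 for the 10 kinases and cyclins, 0.46 for the 6 spindle proteins and motors, 0.30 for the 6 centromere and chromosome proteins and 0.14 for the 3 of anaphase and proteolysis.

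CENPE carries chromosomes along microtubules to the middle of the spindle. At day 30 it was 2.03, -0.46, -1.29, -0.98 and 1.5, against -0.17, -0.73, -2.74, -2.26 and -1.40 before irradiation. Replicates 1 and 5 stood above every array before irradiation and replicates 2, 3 and 4 lay within their range, although each was above its own earlier sample. The change was 1.62 ± 0.34 (5 of 5 pairs higher), with an adjusted p of 0.127 in limma. It was called where the test was limited to probes that all 20 arrays measured above background, with the deposited log2 values, with normexp correction and with an intensity trend in the spread.

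RRM2 was well above background on 0 of 5 arrays before irradiation, on 2 of 5 at day 2 and at day 5, and on 4 of 5 at day 30. Its values were -5.57, -6.42, -6.06, -6.09 and -4.18 before irradiation and -2.98, -5.28, -3.35, -3.19 and -2.61 at day 30. All 5 pairs were higher, replicate 2 remained among the values before irradiation, and the other 4 arrays of day 30 lay above all of these. The fitted change was 2.19 ± 0.28 (adjusted p = 0.12). Because the earlier group was not well above background and the filter fixed the direction, only the bound is used. The mean of day 30, -3.48, against the background limit of -3.93 gives at least a 1.37-fold higher signal. At day 5, with 2 of 5 arrays well above background, no fold is given (fitted change 1.78 ± 0.41, adjusted p = 0.289). At day 2 none could be given either (fitted change 1.05 ± 0.34, adjusted p = 0.247, and 0.62 without replicate 3).

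CDK1, the kinase that starts mitosis, was -1.19, -1.64, -2.07, -1.77 and -1.58 before irradiation and -1.0, -1.31, -1.24, -1.06 and -0.36 at day 30. All 5 pairs were higher, and the groups overlapped only through replicate 1 before irradiation. The change was 0.66 ± 0.20 (adjusted p = 0.177). DLGAP5, which binds spindle microtubules near chromosomes, was -2.42, -1.96, -3.01, -2.43 and -2.03 before and -2.09, -1.95, -1.85, -1.28 and -1.05 at day 30, a change of 0.72 ± 0.22 (adjusted p = 0.179). All 5 pairs were higher, and the lowest value of day 30, in replicate 1, lay among the earlier ones. HMMR, a spindle protein and hyaluronan receptor, had a change of 0.84 ± 0.28 (adjusted p = 0.198), and its probe was well above background on 3 of 5 arrays before irradiation and on 5 of 5 at day 30. The checkpoint kinases TTK and BUB1 had a change of 0.48 ± 0.18 (adjusted p = 0.232) and 0.56 ± 0.23 (adjusted p = 0.27), each well above background on 4 arrays before and 5 after. HMMR was at 0.55 without replicate 3, and BUB1 at 0.35 without replicate 5. With normexp correction DLGAP5 and HMMR were called at day 30, beside CENPE and RRM2, when 11.5% of all probes were higher and 7.03% lower at an unadjusted p under 0.05.

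GINS2 and NUSAP1, a protein that bundles spindle microtubules, were higher in 5 of 5 pairs by 0.44 ± 0.20 (adjusted p = 0.296) and 0.34 ± 0.17 (adjusted p = 0.332). Much of the GINS2 change came from replicate 5, at -3.93 before irradiation and -2.79 at day 30. The other kinases and cyclins with a change above 0 included CCNB2, at 0.43 ± 0.21, and BUB1B, at 0.42 ± 0.21. BIRC5 and CENPA, the histone of centromeres, had changes of 0.45 ± 0.23 and 0.44 ± 0.20. The 7 members with a change below 0 were MCM2, MCM5, MCM7, E2F1, CCNB1, KIF2C and MKI67, with values from -0.31 to -0.02, each with a p above 0.05.

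**Figure D3:**
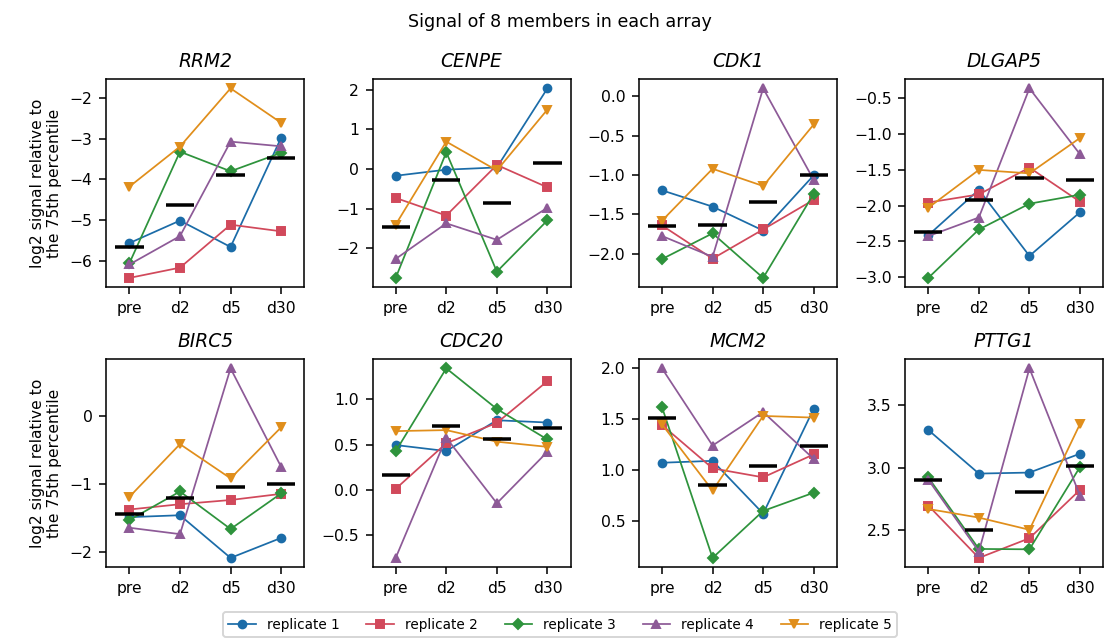
Each line follows 1 replicate number through pre-irradiation (pre) and days 2, 5 and 30, with the log2 signal relative to the 75th percentile of the array on the y axis and black bars for the mean of 5 arrays. RRM2, CENPE, CDK1 and DLGAP5 are higher at day 30 in every line, replicate 4 peaks at day 5 for CDK1, DLGAP5, BIRC5 and PTTG1, and MCM2 and PTTG1 are lowest at day 2 on average.

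At day 30 the count of members at an unadjusted p under 0.05 was between 5 and 12 when 1 replicate was left out, with 0 lower each time. It was 5 without replicate 2, 3 or 4 and 12 without replicate 1. With quantile normalization it was 11, with median scaling 13, and with the slide as a block 4, while 7.59%, 9.24% and 4.24% of all probes were higher. Under each of these settings 0 members were lower.

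The days were also compared with each other. Day 5 and day 2 could not be separated in any member, with 0 higher and 0 lower at an unadjusted p under 0.05, beside 2.17% and 1.39% of all tested probes, of which 0% were called. The members' median change from day 2 to day 5 was 0.17, and it was 1.08 in pair 4. With normexp correction the median was -0.22, against -0.13 for all tested probes.

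Between day 2 and day 30, 7 members were higher and 0 lower, or 19.4% and 0%, beside 5.4% higher and 7.44% lower of all tested probes, of which 0.0501% were called. The median change was 0.24 for the members and 0.00 for all tested probes, and it turned to -0.046 and -0.10 with normexp correction. CDK1 was -1.40, -2.06, -1.74, -2.04 and -0.92 at day 2, and the 5 arrays of day 30 lay above all of these but replicate 5. The change was 0.64 ± 0.14 (5 of 5 pairs higher, adjusted p = 0.3). PTTG1, low at day 2, was 3.11, 2.82, 3.01, 2.78 and 3.35 at day 30, which was 0.51 ± 0.14 above day 2 (adjusted p = 0.359) and close to its values before irradiation, with a change from these of 0.11 ± 0.19 (adjusted p = 0.783). HMMR, RRM2, GINS2, CENPA and BUB1B were the other 5, with changes of 0.73 ± 0.21, 1.14 ± 0.34, 0.48 ± 0.18, 0.50 ± 0.20 and 0.38 ± 0.16. RRM2 met the filter's limit of 5 arrays only through those of day 30, so its direction is not read here. Without RRM2 and CDC6 there were 6 members higher and 0 lower, beside 5.37% and 7.43% of the probes left. In every pair 7 members were higher, CDK1, PTTG1, GINS2, BUB1B, CENPF, CCNA2 and MCM6, and 0 lower, beside 7.03% and 6.69% of all tested probes. CCNA2 had a change of 0.36 ± 0.17, CENPF of 0.34 ± 0.16 and MCM6 of 0.20 ± 0.13, none with a p under 0.05. With normexp correction the changes of HMMR, RRM2, GINS2 and BUB1B between these days turned to values below 0, and the count was 2. Without replicate 2 the count was 4. AURKB, an Aurora kinase of the passenger complex, was well above background on 0 of 5 arrays at day 2. At day 30 it was well above background on 2 of 5 arrays, so no fold is given (means -3.92 at day 30 and -4.16 at day 2, adjusted p = 0.672).

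Between day 5 and day 30 only CENPE was higher at an unadjusted p under 0.05, by 1.01 ± 0.34 (adjusted p = 0.561), and 0 members were lower, beside 1.84% and 6.64% of all tested probes, of which 0% were called. CENPF was higher in every pair by 0.41 ± 0.19, and TPX2, which activates Aurora A, lower in every pair by 0.35 on the log2 scale, a change of -0.35 ± 0.20. TPX2 differed most in replicate 3, at -3.34 on day 5 and -4.37 on day 30, and that array of day 5 stood apart in quality. The TPX2 probe was well above background on 3 of 5 arrays at day 5 and on 1 of 5 at day 30. Without replicate 4 the count was 4, and without replicate 1 or 5 it was 0.

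CENPF differed between animals more than between days. It was -1.37, -2.92, -3.45, -2.25 and -2.54 in replicates 1 to 5 before irradiation, -1.69, -3.19, -3.61, -2.36 and -2.65 at day 2, -2.03, -3.11, -3.51, -2.51 and -2.69 at day 5 and -1.57, -2.94, -3.30, -1.51 and -2.48 at day 30. Replicate 3 was the lowest in each of the 4 groups. Replicate 1 was the highest in 3 of the 4 groups and replicate 4 at day 30.

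For 7 members a second probe passed, and the 2 probes of a gene could have changes of opposite sign. They did so for MKI67, UHRF1 and ZWINT at day 2, for MCM5, MCM7, MKI67 and UHRF1 at day 5, and for CCNB1, MKI67 and UHRF1 at day 30. Between day 5 and day 30 they did so for 7 of 7 genes. The probe used for CCNB1 had a change of -0.31 ± 0.18 at day 30 and the other of 0.25 ± 0.19. At day 5 the probe used was -0.99 in replicate 4, the lowest of the 20 arrays, while the other was -0.25, the highest. Over 20 arrays the probe used had a Pearson r of -0.615 with the mean of the other mitotic members and the other probe had r = 0.759, or -0.488 and 0.622 without replicate 4 of day 5. The arrays share their normalization, so this is a description of likeness with no test.

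**Figure D4:**
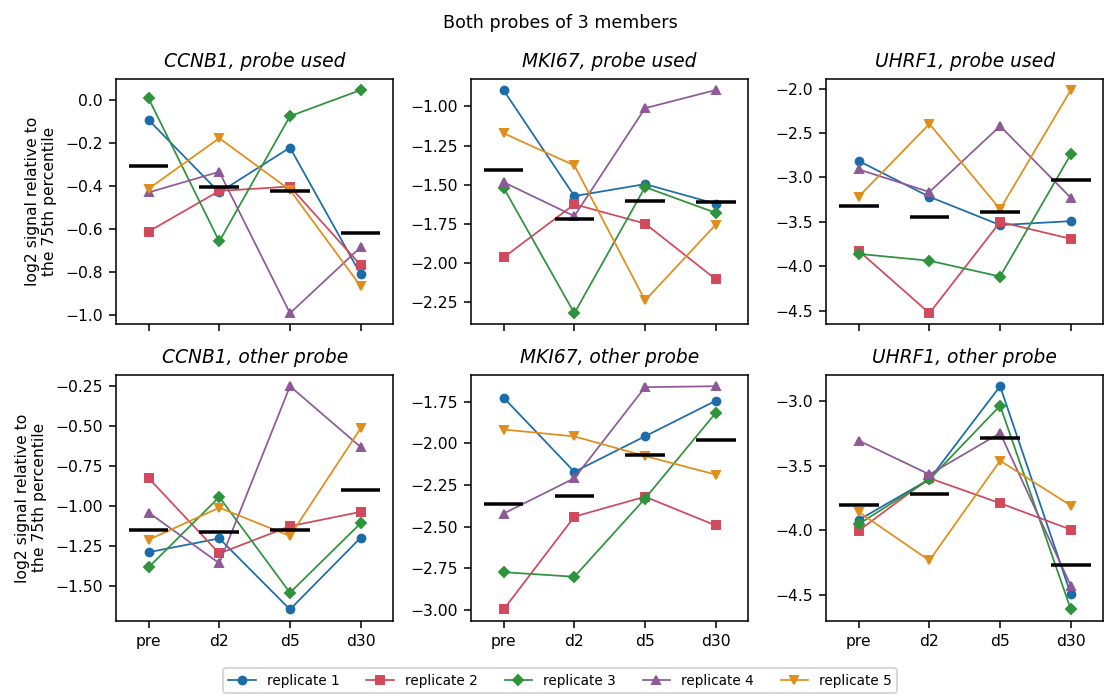
The upper row shows the probe used for CCNB1, MKI67 and UHRF1 and the lower row the other probe that passed, with the log2 signal relative to the 75th percentile of the array (y axis) by group (x axis), 1 line for each replicate and black bars for the mean. In replicate 4 of day 5 the probe used for CCNB1 is at -0.99 and the other at -0.25.

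MKI67 encodes the Ki-67 protein that coats mitotic chromosomes. Its probe in use had a change of -0.20 ± 0.22 at day 30 and the second of 0.39 ± 0.22, and another probe was not well above background on 20 of 20 arrays. The probe in use for UHRF1 had a change of 0.29 ± 0.30 at day 30. The other UHRF1 probe was well above background on 2 of 5 arrays before irradiation, 5 of 5 at day 5 and 0 of 5 at day 30. Its mean was -4.27 at day 30 and -3.81 before irradiation, and no fold is given for this difference. Of the 5 pairs, 3 were lower and 2 higher (adjusted p = 0.313 in limma). Against day 5, with a mean of -3.28, its signal at day 30 was at least 1.67-fold lower. That held in 5 of 5 pairs (adjusted p = 0.561 in limma). This probe was higher at day 5 than before irradiation in every pair, by 0.52 ± 0.19. The second probes of PCNA and ZWINT had changes above 0 at day 30 like the first, of 0.22 ± 0.18 and 0.30 ± 0.17.

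The other genes of the pathway were read from lists of related genes. Of 55 other mitotic genes 41 passed the filter, and at an unadjusted p under 0.05 there were 2 higher and 3 lower at day 2, 5 and 0 at day 5, and 10 and 0 at day 30. These were 4.88% and 7.32%, 12.2% and 0%, and 24.4% and 0% of the 41. Of all tested probes 8.47% and 6.55%, 7.35% and 3.82%, and 7.43% and 10.1% were higher and lower. The median change of the 41 genes at day 30 was 0.22. SHCBP1, a partner of the cytokinesis machinery, had a change of 1.39 ± 0.20 at day 5 (adjusted p = 0.279) and of 0.92 ± 0.21 at day 30 (adjusted p = 0.14), in 5 of 5 pairs each time. It was -0.91, -1.36, -2.78, -3.31 and -1.37 before irradiation and 0.34, -0.65, -1.30, -1.34 and 0.17 at day 5. SPC24, a kinetochore subunit, had a change of 1.11 ± 0.26 at day 5 (adjusted p = 0.289). CDCA2, which targets a phosphatase to chromosomes, had a change of 0.95 ± 0.19 at day 30 (adjusted p = 0.126) and was 0.73 ± 0.16 higher at day 30 than at day 2 (adjusted p = 0.298). Of 34 other replication genes 30 passed, with 3, 2 and 2 higher and 0 lower on the 3 days, or 10.0%, 6.67% and 6.67%, which is near the 8.47%, 7.35% and 7.43% of all tested probes. POLA2, a subunit of the primase complex, had a change of 0.75 ± 0.17 at day 2 (adjusted p = 0.17), and POLD3, a subunit of polymerase delta, of 1.06 ± 0.23 at day 30 (adjusted p = 0.129). None of these genes was called.

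Genes that restrain the cycle did not share a direction. Of 21 inhibitors and quiescence genes 20 passed. At an unadjusted p under 0.05, 3 were higher and 2 lower at day 2. The counts were 2 and 2 at day 5, and 4 and 1 at day 30. Beside these, 8.47% of all tested probes were higher and 6.55% lower at day 2. Their shares were 7.35% and 3.82% at day 5, and 7.43% and 10.1% at day 30. CDKN1A, or p21, the inhibitor induced by p53 after DNA damage, was -5.64, -4.15, -3.55, -3.25 and -4.54 before irradiation, -2.48, -3.60, -3.31, -2.95 and -2.49 at day 2, and -4.95, -4.02, -3.89, -4.58 and -3.99 at day 30. It was well above background on 2 of 5 arrays before irradiation, on 5 at day 2 and on 3 at day 30. Day 2 was higher in 5 of 5 pairs, by 1.26 ± 0.43 (adjusted p = 0.258), and day 30 was below day 2 in 5 of 5 pairs, with a change of -1.32 ± 0.31 (adjusted p = 0.308). The difference at day 2 came mostly from replicates 1 and 5. Replicates 1 and 5 before irradiation, at -5.64 and -4.54, lay below the lowest signal well above background on their arrays, -3.29 and -4.07. Replicate 2, at -4.15, lay just below its limit of -4.14. The size of the change at day 2 is therefore not exact. CDKN1C, or p57, was 3.87, 4.12, 4.26, 2.11 and 2.89 before irradiation and 4.57, 5.90, 4.95, 3.68 and 3.37 at day 30, a change of 1.04 ± 0.24 (5 of 5 pairs, adjusted p = 0.134), and it was 0.99 ± 0.25 above day 2 (adjusted p = 0.332). CDKN2A, which encodes p16, had a change of -1.52 ± 0.32 at day 30 (5 of 5 pairs lower, adjusted p = 0.126). CDKN3, a phosphatase that acts on CDK1 and its relatives, had the widest change of the list at day 5, 1.0 ± 0.32 (adjusted p = 0.35).

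Of 18 cell cycle transcription factors 16 passed, and of 11 G1 cyclins and kinases 9 passed. The transcription factors had 1 higher and 2 lower at day 2, 1 and 3 at day 5, and 0 and 1 at day 30. The G1 genes had 1 and 0, 0 and 0, and 0 and 0, all counts being at an unadjusted p under 0.05. Of all tested probes 8.47% and 6.55%, 7.35% and 3.82%, and 7.43% and 10.1% were higher and lower on these days. E2F7 had the widest change among the factors at day 30, 0.79 ± 0.35 (adjusted p = 0.29), and E2F5 at day 2 and day 5, with -0.65 ± 0.28 and -0.76 ± 0.21. E2F4 was lower at day 30 than at day 5 by 0.64 on the log2 scale, a change of -0.64 ± 0.16 (adjusted p = 0.561). CCND1 had the widest change of the G1 genes at day 2, 0.63 ± 0.40. It was not well above background on any array of day 30, and no fold can be given for that day. CCND2 had the widest at day 5, -0.37 ± 0.22.

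Tested genes were ranked by their Pearson r with the mean of the 25 mitotic members over 20 arrays, to describe which shared that pattern. The members and the lists of related genes were left out, while the cell type markers stayed in. Among the 15 closest were CEP55 (r = 0.935), SPAG5 (0.906), KNSTRN (0.884), KIFC1 (0.852), CIT (0.848), HIST1H3I (0.834), the transcript ENST00000443279 (0.806), NUDCD2 (0.803), TUBB2B (0.801), REXO2 (0.794), the transcript THC2685534 (0.774), MICU2 (0.770), C1orf174 (0.767) and SFR1 (0.767). They include known genes of cytokinesis (CEP55, CIT) and the spindle (SPAG5, KNSTRN, KIFC1). Replicate 4 of day 5 weighs on these values. Without it r was 0.901 for CEP55, 0.859 for SPAG5 and 0.817 for KNSTRN, and without the 2 arrays farthest from the median, 0.872, 0.80 and 0.748. Within the members, CCNB2 (r = 0.931) and CDK1 (0.920) were closest to the mean of the others, while TPX2 had r = 0.063, CENPE 0.229 and CDC20 -0.281. Without replicate 4 of day 5 these became -0.072, 0.535 and -0.079, so the low value of CENPE rests on that array. The TPX2 probe was well above background on only 7 of 20 arrays, so its r is not read.

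**Figure D5:**
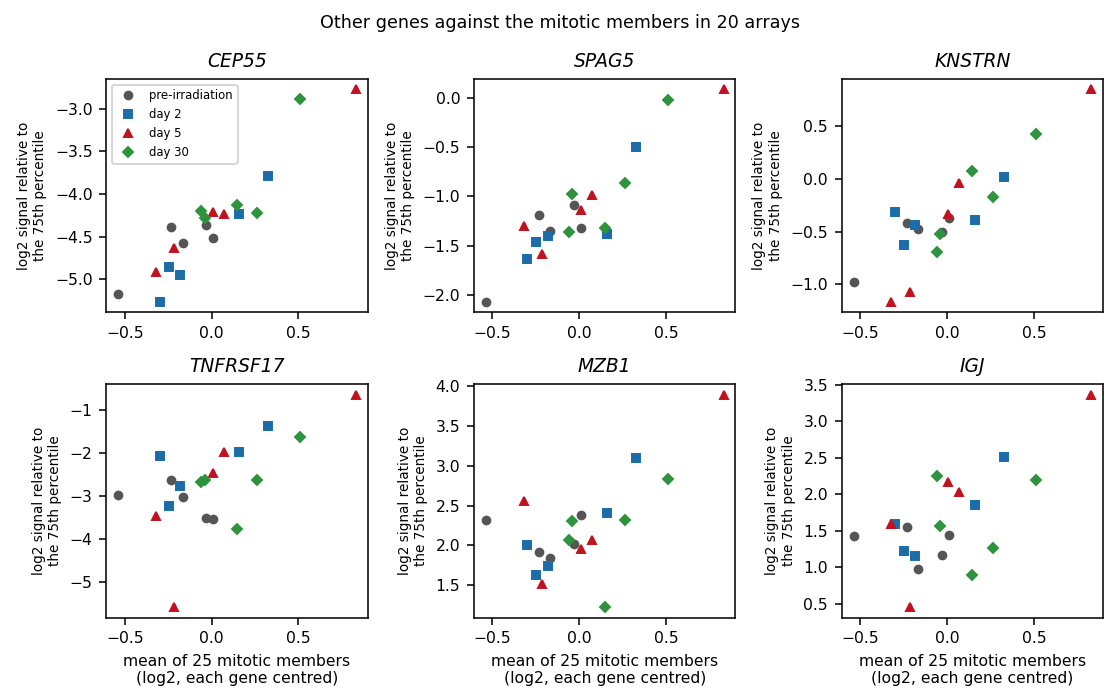
Each point is 1 array, with the mean of the 25 mitotic members (log2, each gene centred) on the x axis and the log2 signal of another gene relative to the 75th percentile on the y axis. The array with the highest mitotic mean, 0.83, is replicate 4 of day 5, and it is also the highest for the 3 plasma cell genes of the lower row. Of the 13 plasma cell markers, 6 were highest in that array.

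Some markers of other cell types were high in the same array as the members. Of 13 markers of plasmablasts and plasma cells all 13 passed, and 6 of them were highest of all 20 arrays in replicate 4 of day 5, namely TNFRSF17, MZB1, IGJ, FKBP11, TXNDC5 and CD38. TNFRSF17, the BCMA receptor, was -5.59, -2.45, -3.46, -0.64 and -1.98 in replicates 1 to 5 of day 5. MZB1 was 1.51, 1.96, 2.56, 3.90 and 2.07, and IGJ, the joining chain of antibodies, was 0.46, 2.17, 1.6, 3.37 and 2.04. In replicate 5 of day 2, where the mitotic mean was 0.33, TNFRSF17, MZB1 and IGJ were -1.36, 3.10 and 2.51. FKBP11, TXNDC5 and CD38 were 3.71, 2.2 and -0.25 in replicate 4 of day 5. Others of the list were not raised there. IRF4 was -2.14, below its range of -2.07 to -1.69 before irradiation, and PRDM1 was -0.52, within its range of -0.81 to 0.11. The mean of the 13 markers, each centred on its own mean over 20 arrays, was 0.60 in replicate 4 of day 5, the highest of the 20. It was 0.42 in replicate 5 of day 30, the next highest, which also came next for the mitotic mean. The summed level of the 13 markers, on a linear scale relative to the 75th percentile, was 79.1, 89.4, 87.8, 102 and 90.5 at day 5, and 82.4, 96.5, 108, 107 and 71.3 before irradiation. That sum does not single out replicate 4, since it is led by DERL3, which was lower there, at 3.80. The part of plasmablasts in the members' values was not tested.

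Replicate 4 of day 5 also had the highest summed level of the 16 T cell markers, 432, against 158 to 297 in the other 4 arrays of day 5, with CCR7 as the most abundant gene and 16 of 16 markers above the filter. Its sums for monocyte and neutrophil markers, 184 and 186, were the lowest of day 5. Before irradiation the same replicate had a T cell sum of 366 and monocyte and neutrophil sums of 113 and 126, the lowest of all 20 arrays, with a mitotic mean of -0.17. The share of these cells in the members' values was not tested.

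Erythroid precursor markers had 14 of 17 genes above the filter, led by ALAS2, with GYPB, RHAG and TRIM58 below it. Whether their signal came from dividing cells was not tested. None of these markers was called, and at an unadjusted p under 0.05 there were 0 higher and 0 lower at day 2, 1 and 0 at day 5, and 0 and 2 at day 30. The shares of all tested probes were 8.47% higher and 6.55% lower at day 2, 7.35% and 3.82% at day 5, and 7.43% and 10.1% at day 30. In the erythroid list SELENBP1 had the widest change at day 5, 1.14 ± 0.32, and SLC4A1 at day 30, -2.12 ± 0.76. The summed level of that list in replicate 4 of day 5 was 1709, the lowest of the 5 arrays of that day. Of 14 markers of granulocyte precursors 10 passed, led by CAMP, with ELANE, DEFA4, MMP8 and MS4A3 below the filter, and 5, 7 and 5 were higher on days 2, 5 and 30 with 0 lower. CEACAM8, CTSG, LCN2 and CAMP had changes at day 5 of 0.96 ± 0.19, 0.77 ± 0.16, 1.36 ± 0.29 and 0.71 ± 0.17. The sum of that list was 49.0 in replicate 4 of day 5, again the lowest of that day. Of 11 markers of stem and progenitor cells 7 passed, and CD34, PROM1, ERG and CRHBP did not. MEIS1 had a change of 1.25 ± 0.23 at day 2 (adjusted p = 0.143), and HOXA9 of -1.09 ± 0.24 at day 30 (adjusted p = 0.132).

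Lymphocyte markers were low on several days. At day 2, when MCM2, MCM5 and PTTG1 were low, 12 of 13 NK cell markers, 9 of 16 T cell markers and 7 of 10 B cell markers were lower and 0 higher at an unadjusted p under 0.05. At day 5, when of the 3 genes only MCM2 was lower at that limit, 6, 4 and 8 were lower and 0 higher, and at day 30 these lists had 3 higher and 0 lower, 0 and 6, and 0 and 4. Of all tested probes 8.47% were higher and 6.55% lower at day 2, 7.35% and 3.82% at day 5, and 7.43% and 10.1% at day 30. The NK cell markers with a p under 0.005 at day 2 were KLRB1, GZMA, GNLY, KLRF1, NCR3, KLRC1, PRF1, KLRD1, GZMH, NKG7 and GZMB, with changes from -1.88 for GZMA to -0.98 for NCR3, and KLRB1 was called (adjusted p = 0.0965). CD8A and CD2 had a change of -0.86 ± 0.17 and -0.65 ± 0.17 at day 2, FCRLA of -0.87 ± 0.18 at day 5, and NCAM1 of 0.79 ± 0.19 at day 30. The summed level of the NK cell list, led by GZMB, was 181, 117, 262, 164 and 214 before irradiation and 100, 74.0, 75.1, 63.5 and 32.9 at day 2. The T cell sums were 372, 360, 278, 366 and 256 before and 224, 316, 225, 252 and 182 at day 2. The part of lymphocyte numbers in the lower MCM2, MCM5 and PTTG1 values was not tested.

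Platelet and myeloid markers were high at day 2, and platelet markers no longer at day 30. At day 2, 11 of 11 platelet markers, 8 of 12 monocyte markers and 7 of 11 neutrophil markers were higher and 0 lower, and at day 30 the counts were 0 higher and 2 lower, 8 and 0, and 5 and 0. The shares of all tested probes were 8.47% higher and 6.55% lower at day 2, and 7.43% and 10.1% at day 30. TUBB1, PF4, PPBP, TREML1, GP9, CLU, GP1BB, ITGA2B and ITGB3 had a p under 0.005 at day 2, with changes from 0.99 for GP9 to 1.94 for ITGB3. C1QA, among the monocyte markers, was called at day 2 with a change of 2.91 ± 0.30 (adjusted p = 0.0639), FCGR3A and the neutrophil marker CSF3R had a change of 0.69 ± 0.18 and 1.0 ± 0.20 on that day, and CD163, CSF1R and CXCR2 of 0.97 ± 0.24, 0.73 ± 0.19 and 1.11 ± 0.26 at day 30. S100A12 had a change of 1.57 ± 0.40 at day 5, and DERL3, of the plasma cell list, of -1.02 ± 0.22 at day 30.

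Marker lists also differed between day 2 and day 30, the days between which 7 members were higher. Of 13 NK cell markers 12 were higher and 0 lower at an unadjusted p under 0.05, with a median change of 1.43, and KLRB1, KLRD1 and KLRC1 were called (adjusted p = 0.094 each). Of 11 platelet markers 10 were lower and 0 higher, with a median of -1.80. T cell markers had 2 higher and 2 lower, B cell markers 1 and 0, and neutrophil markers 0 and 0. Of all tested probes 5.4% were higher and 7.44% lower between these days. C1QA was called as lower, while the monocyte list had 0 higher and 1 lower. The part of these cells in the members' values was not tested.

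The arrays of a group all sat in the same position of their slides, so position and group cannot be told apart, while each of the 5 slides held 1 array of every group. Nothing in the labels says whether the replicates of a group differ in batch beyond the slide.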

How the data were processed

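The authors deposited the scanner output of each array, produced with Agilent Feature Extraction (version 10.7 per the labels, 12.0.2.2 per the file headers), whose processed signal is a background-corrected intensity, and a table of log2 values of 5885 rows that they had normalized, used here only as an alternative. RNA was globin-depleted whole blood RNA in a single colour on human probes.

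Control spots were left out, spots of a probe were averaged, and log2 intensity minus the 75th percentile of each array was fitted with limma 3.58.1 in R 4.3.3. A probe was tested if well above background on at least 5 of 20 arrays. Each comparison used only the groups it compares and blocked on replicate number, since the study's methods pair samples by animal. Same-numbered arrays had a median correlation of deviations of 0.285 (25 of 30 above 0.1). P-values were adjusted by Benjamini-Hochberg over all tested probes. The share of spots well above background was 50.9% to 67.3% per array, and precision is limited by having 5 arrays a group.

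The members and lists were chosen with earlier results of these data known. Members were named with values if their p was under 0.05 in a comparison or all 5 pairs of a day went the same way, and others where a paragraph needed them, which was decided after their values were seen. Genes of other lists were named at a p under 0.005, or else for the widest change of the list, with the 15 genes most like the mitotic members, of which 1 is not reported here. The rule's ranking of levels within a role was not used, because signals of different probes cannot be compared. Alternatives were other normalization, background correction, filters, blocks and deposited values, and leaving out each replicate. The fit was tested on simulated data.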

Additional observations from a re-analysis of the deposited data

Results flagged for a closer look

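The sets of 5 arrays examined were 144 of a member in a group and 8 of the mean of the mitotic or the replication members in a group. In 8 of these 152 sets, each of them a member, the highest or lowest array stood apart by a gap of more than 0.71 of the range, while chance flags about 1 in 20 sets. KIF2C and TTK were high in replicate 4 of day 5, at 0.24 and -2.34, against -2.01 to -1.61 and -3.76 to -3.36 in the other arrays. GINS2 and UBE2C were high in replicate 5 of day 30, at -2.79 and 0.13, against -3.97 to -3.65 and -0.97 to -0.70. RRM2 was low in replicate 2 of day 30, at -5.28, where the others lay between -3.35 and -2.61. Replicate 3 was apart in 3 groups, with CDC20 at 1.34 on day 2 (others 0.43 to 0.66), the probe used for CCNB1 at 0.048 on day 30 (others -0.86 to -0.68) and GINS2 at -4.33 before irradiation (others -3.95 to -3.90).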

How the results depend on the processing

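The 30 member changes with an unadjusted p under 0.05 had 511 values under other settings, of which 340 stayed under that limit, 167 had the same direction with a p of 0.05 or more and 4 the opposite direction. These 4 arose with normexp correction for day 30 against day 2, where BUB1B was -0.15, GINS2 -0.13, RRM2 -0.044 and HMMR -0.0006. The members' median then moved to -0.046 from 0.24, and at day 2 to 0.36 from 0.01. For all tested probes it moved to -0.10 from 0.00, and at day 2 to 0.17 from -0.04. The causes were not tested.

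Counts of members at an unadjusted p under 0.05 also moved. With the deposited values, in which 14 or 15 members could be fitted, they were 2, 2, 3 and 1 at days 2, 5 and 30 and for day 30 against day 2, beside 18.9%, 9.44%, 13.7% and 3.79% of all probes higher and 4.63%, 4.99%, 11.5% and 8.71% lower. The members' median at day 2 was then 0.037 and that of all probes 0.12. Without the replicate block they were 3 and 3 at days 2 and 5, 2 for day 30 against day 2 and 0 for day 30 against day 5. With the slide as a block they were 3 and 4 at days 2 and 30, 3 for day 5 against day 2, 4 for day 30 against day 2 and 0 for day 30 against day 5. With all 20 arrays fitted together with the replicate block, and with the slide added, they were 4 at day 2 and 3 for day 30 against day 2. Median scaling gave 3, 13 and 2 at day 5, at day 30 and for day 30 against day 5, and quantile normalization 3, 11 and 2, beside 3.33%, 9.24% and 5.74%, and 5.39%, 7.59% and 3.6%, of all probes higher, against 7.35%, 7.43% and 1.84% in the reported setting. Normexp gave 15 at day 30, 1 for day 5 against day 2 and 2 for day 30 against day 2. Probes well above background on all 20 arrays, which 23 members had, gave 4 and 3 at day 30 and for day 30 against day 2. A paired test made separately for every probe gave 2 at day 5 and 0 for day 30 against day 5. The settings for these counts, but not for the changes themselves, and the counts without RRM2 and CDC6 were added after seeing the data.

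The count of all probes called was unstable. At day 2 it was 12, and 343 with all arrays fitted together, 153 with the slide added, 327 with deposited values, 200 with an intensity trend, 190 for probes well above background on all arrays, 1 with the slide as a block, and 0 with no filter, no replicate block, normexp, quantile normalization or the probe's own paired test. For day 30 against day 2 it was 10, and 164, 94, 57, 26, 5 with normexp, 4 with no replicate block, and 0 with no filter, the slide as a block or the own paired test, the first 4 being all arrays together, the slide added, deposited values and probes above background on all arrays. At day 30 it was 0, and 121, 7, 334, 451 with the trend, 952 with normexp, 695 with the stricter filter and 1 with the own paired test. At day 5 it was 0, and 9 with median scaling, 2 with all arrays and slide and 1 with the own paired test.

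Leaving out 1 replicate gave 0 to 588 probes at day 2, 0 to 66 for day 30 against day 2 and 0 to 2 for day 30 against day 5. It gave 3 to 10, 2 to 7 and 5 to 12 members at days 2, 5 and 30, 0 to 1 for day 5 against day 2, 4 to 8 for day 30 against day 2 and 0 to 4 for day 30 against day 5. The members' median ranged from -0.03 to 0.14, -0.02 to 0.33 and 0.22 to 0.31 at days 2, 5 and 30, and from -0.03 to 0.32, 0.18 to 0.33 and -0.03 to 0.23 for day 5 against day 2, day 30 against day 2 and day 30 against day 5.

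Dim probes are bounded by background, 5 arrays per group limit the precision, and no unirradiated animals were compared, so time and irradiation cannot be told apart.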
